A study of Caenorhabditis elegans with 2 samples.

Results

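The genes described here are the small nuclear RNA (snRNA) genes of the nematode Caenorhabditis elegans other than the spliced leader genes. They are all 99 genes that the Ensembl annotation of assembly WBcel235 types as snRNA and whose names do not begin with sls-1 or sls-2, out of 129 genes of that type and 46926 annotated genes. Binding of SNPC-1.1 was measured at them by chromatin immunoprecipitation with sequencing (ChIP-seq) with an antibody to GFP. The chromatin came from whole young adult hermaphrodites of strain YL482, a stable transgenic line in which the product of C06A8.2 (snpc-1.1) ends in a GFP and FLAG tag. Both biological replicates belong to this group, so the study holds no second condition, and all values are from whole animals of mixed tissues in which a cell type that binds and cell types that do not cannot be told apart. An untagged strain was not analysed here.

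SNPC-1.1 is the worm counterpart of a protein of SNAPc, the complex that activates transcription of small nuclear RNA genes. In animals SNAPc binds a short element upstream of snRNA genes, the proximal sequence element, and serves RNA polymerase II at the U1, U2, U4 and U5 genes and RNA polymerase III at the U6 genes, whose promoters carry a TATA box in other animals. U1 RNA pairs with the 5′ splice site, U2 RNA with the branch point, U4 RNA holds U6 RNA until the spliceosome is activated, U5 RNA contacts the exon ends, and U6 RNA replaces U1 at the 5′ splice site. The RNAs made by polymerase II carry a ring of Sm proteins on a site rich in U, and U6 RNA carries an Lsm ring instead. SmY RNAs are Sm-bound RNAs of nematodes that are linked to spliced leader trans-splicing.

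The annotation gives no RNA type for these genes, so they were placed by short letters known from each RNA. The letters ACTTACC in the first 20 bases, those of the U1 end that pairs with the 5′ splice site, placed 12 genes. The branch point letters GTAGTAT placed 19 genes as U2, TTTGCGC in the first 20 bases placed 5 as U4, the loop letters CTTTTAC placed 11 as U5, and the box letters ACAGAGA placed 22 as U6. Of the other 30 genes, 10 are named smy (SmY) and 20 have neither that name nor the letters of exactly 1 U RNA. Most genes of a U group were near-identical to each other: the median identity within a group was 95.8% for U1, 98.9% for U2, 99.0% for U4, 95.1% for U5 and 99.0% for U6, against 74.1% for SmY and 30.2% for the 20 others. The lowest identity of a pair was 88.8% within U1, 55.6% within U2, 95.8% within U4, 87.3% within U5 and 72.2% within U6. The U2 gene W07G1.24, of 149 bases, stood apart from the other 18 at a limit of 80% identity and is the U2 gene without the Sm site. At the same limit some of the 20 others joined a U group: T27E4.22 U1, T14B4.10 U2, C53D6.16 U5 and F36A4.23 U6. The Sm site letters ATTTTTG were present in 12 of 12 U1 genes, 18 of 19 U2 genes, 5 of 5 U4 genes, 10 of 11 U5 genes, 10 of 10 SmY genes, 4 of 20 others and 0 of 22 U6 genes. The label of U snRNA genes of the spliceosome therefore fits 69 of the 99 genes by these letters, and the SmY genes and the 20 others, which include mir-1831, were kept apart.

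The starts of the member with the strongest peak in each group show what the promoters share. Each line gives 80 bases upstream of the annotated start and the first 50 bases of the gene, read on the gene's strand from the RefSeq genome sequence of WBcel235. Capitals mark the leading upstream words described further on, on either strand, the letters TATAA, and the letters that placed the gene.
sup-6 (U1, II:12944918-12945047, minus strand): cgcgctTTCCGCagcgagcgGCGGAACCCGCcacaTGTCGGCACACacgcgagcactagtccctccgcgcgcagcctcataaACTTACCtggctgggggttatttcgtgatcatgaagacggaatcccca
Y57G11C.35 (U2, IV:14764985-14765114, minus strand): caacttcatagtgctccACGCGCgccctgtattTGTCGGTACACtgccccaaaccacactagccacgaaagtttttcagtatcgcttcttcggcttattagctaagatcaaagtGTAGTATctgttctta
C52E4.8 (U4, V:11980038-11980167, plus strand): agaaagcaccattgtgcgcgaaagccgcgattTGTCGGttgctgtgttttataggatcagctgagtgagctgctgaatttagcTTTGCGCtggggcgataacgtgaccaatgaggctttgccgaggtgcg
F42C5.12 (U5, IV:7316652-7316781, plus strand): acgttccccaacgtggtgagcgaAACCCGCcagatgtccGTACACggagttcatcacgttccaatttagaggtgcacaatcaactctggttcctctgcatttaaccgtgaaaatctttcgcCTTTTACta
W05B2.8 (U6, III:10989599-10989728, plus strand): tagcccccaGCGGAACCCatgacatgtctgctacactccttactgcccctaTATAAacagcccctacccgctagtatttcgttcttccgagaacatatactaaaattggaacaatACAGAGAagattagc
smy-1 (SmY, IV:9511790-9511919, minus strand): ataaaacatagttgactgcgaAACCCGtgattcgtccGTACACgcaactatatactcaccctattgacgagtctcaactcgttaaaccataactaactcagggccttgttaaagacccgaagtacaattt

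The following stretches are of members without a reproducible peak, set out in the same way to show which of these letters they carry.
W07G1.9 (U2, II:13949109-13949238, minus strand): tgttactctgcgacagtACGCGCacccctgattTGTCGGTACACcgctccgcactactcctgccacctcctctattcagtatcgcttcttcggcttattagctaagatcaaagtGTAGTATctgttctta
K09B11.11 (U6, IV:13435837-13435966, minus strand): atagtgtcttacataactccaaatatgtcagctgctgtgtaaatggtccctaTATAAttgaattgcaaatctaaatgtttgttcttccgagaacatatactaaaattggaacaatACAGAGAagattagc
C41G6.17 (other, V:15229288-15229417, minus strand): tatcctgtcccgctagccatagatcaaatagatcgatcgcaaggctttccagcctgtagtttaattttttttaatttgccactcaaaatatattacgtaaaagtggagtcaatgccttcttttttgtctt
The U2 gene W07G1.9 has the same capitals upstream as the U2 gene with the strongest peak. The U6 gene K09B11.11 has TATAA within 1 bp of the place where W05B2.8 has it and none of the upstream words. C41G6.17 has none of these letters.

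SNPC-1.1 lay at most U snRNA and SmY genes and at few of the others. A reproducible peak, meaning a region that passed the authors' irreproducible discovery rate (IDR) threshold across the replicates, had its summit within 500 bp of the annotated start at 59 of the 99 genes. That is 59.6%, with an exact 95% binomial interval of 49.3 to 69.3% that covers counting error only, against 4.03% of all annotated genes and 4.25% of protein-coding genes. The 59 genes lay on 57 distinct peaks of the 1500 reproducible ones. The widest distance among them was 198 bp, at the U1 gene T27E4.11, and the nearest gene beyond the limit was the U1 gene T27E4.10 at 757 bp, so few genes depended on the limit. By group, a peak lay at 11 of 12 U1 genes, 12 of 19 U2 genes, 5 of 5 U4 genes, 11 of 11 U5 genes, 9 of 22 U6 genes, 9 of 10 SmY genes and 2 of 20 others. Both peaks of the others are shared with a U1 gene, since mir-1831 lies inside sup-39 and T27E4.22 overlaps T27E4.12. Grouped at 80% identity instead of by letters, a peak lay at 12 of 13 U1 and 12 of 19 U2 genes. It lay at 5 of 5 U4, 11 of 12 U5 and 9 of 23 U6 genes.

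Peaks at the members stood high in the list. The signal is the authors' score for a region, whose scale is unknown, and can be compared only within a list. Its median at the 59 genes was 364.5, with an interval of 258.1 to 474.2 from the order of the values, against a median of 84.8 over all 1500 reproducible peaks, whose values ran between 58.8 and 10087. That interval treats the genes as independent, though they lie on 57 peaks and many are near-identical copies. It does not measure the spread between libraries. The median was 449.0 at the 11 U1 genes (60.9 to 1370), 201.3 at the 12 U2 genes (90.4 to 819.2) and 376.3 at the 5 U4 genes (105.7 to 1324). It was 555.4 at the 11 U5 genes (88.9 to 1378), 292.7 at the 9 U6 genes (114.5 to 1075) and 231.5 at the 9 SmY genes (95.8 to 790.6). The ranges of these 6 groups overlap throughout, and U5 stood highest and U2 lowest by the median. Among the 100 strongest reproducible peaks lay those of 19 members, of which 8 were U5 genes. These are 18 peaks, since mir-1831 shares that of sup-39, and the share of all genes at the 100 peaks was not computed.

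**Figure D1:**
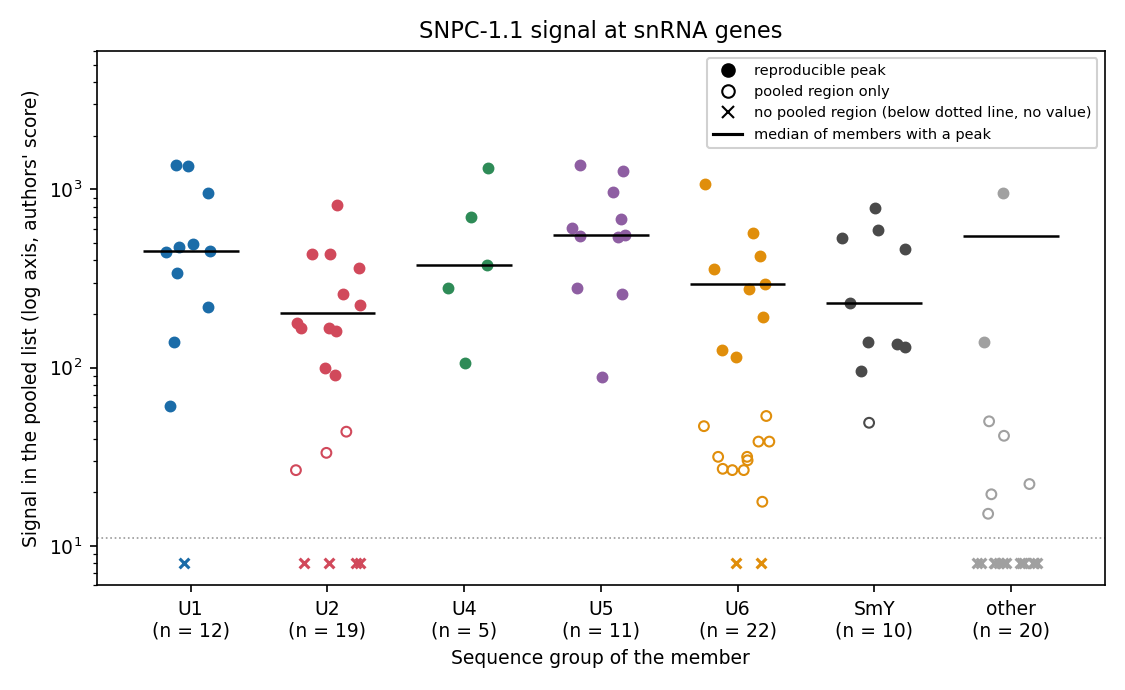
Signal of the highest region within 500 bp of each member's start in the pooled list (log axis, the authors' score), by sequence group, with filled points for members with a reproducible peak, open points for members with a pooled region only, crosses below the dotted line for members with no pooled region, and lines at the median of the members with a peak. All filled points lie at 60.9 or above, and all open points lie between 15.1 and 53.5. The gap is set by the lists, since members with a peak have the same signal and rank in the reproducible and pooled lists.

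The other 40 genes were not empty in every list. Each replicate list and the pooled list hold up to 30000 regions, most of them weak, and 34.4% of all genes had a pooled region within 500 bp of the start, 32.9% a region of replicate 1 and 30.5% a region of replicate 2. Among the members, 79 had a pooled region, 79 a region of replicate 1 and 77 a region of replicate 2. Pooled regions at the 20 members that had one but no reproducible peak scored between 15.1 and 53.5, below every reproducible peak. At members with a peak, signal and rank were the same in the reproducible and pooled lists, as at T27E4.11 (rank 1421 in both). This gap therefore follows from how the lists relate and is not a result about the members. No region of these 3 lists lay at 16 members, of which 12 were among the 20 others, 2 were U2 genes and 2 were U6 genes.

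The strongest U1 peaks lay at sup-6 and H27M09.6. The genes sup-6 and sup-39 are suppressor loci that encode U1 RNAs. At sup-6, within an intron of F58G1.7 and on its strand, the reproducible signal was 1370, with 596.6 in replicate 1 and 797.3 in replicate 2. At H27M09.6, between genes, it was 1347, with 551.7 in replicate 1 and 816.2 in replicate 2. At sup-39, within an intron of C15F1.5, it was 953.1, with 434.3 in replicate 1 and 540.1 in replicate 2. These 3 genes were far above the U1 median in each replicate list, which was 182.6 in replicate 1 and 271.3 in replicate 2. The lowest U1 peak lay at T27E4.11, with 60.9 in the reproducible list, 19.5 in replicate 1 and 39.5 in replicate 2. It was also the lowest of all 59 members, and its replicate 1 region ranked 2506, outside the 1500 strongest of that list. Both T27E4.11 and T27E4.10, the U1 gene without a peak, lay in sequence that is repeated throughout: none of the words of 36 bases within 150 bp of their starts occurs only once in the genome. At T27E4.10 the replicate 2 list held a region of 15.4, and neither the pooled list nor the replicate 1 list held any.

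Of the 19 U2 genes 12 had a peak and 7 did not. The highest was Y57G11C.35, within an intron of Y57G11C.5, with 819.2 in the reproducible list, 350.7 in replicate 1 and 493.7 in replicate 2. F08G2.9 followed with 435.9, 205.8 and 238.7 in the same lists, and F11A5.14 with 432.2, 175.5 and 257.6. The lowest U2 peaks were W04G5.11, with 90.4, 43.4 and 48.6, and Y47H9A.2, with 99.3, 38.2 and 62.1. The top member was thus above all other U2 genes in each list. Of the 7 U2 genes without a peak, C05G6.4, R05D7.6 and W07G1.8 had a pooled region, at 33.2, 43.7 and 26.6. W07G1.9 and W07G1.24 had only a replicate 1 region, at 6.90 and 8.67, and F15H9.5 and F15H9.6 had no region in any list. The last pair, within introns of the genes sri-17 and of sri-15 and sri-16, had no 36-base word around the start that occurs only once.

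All 5 U4 genes had a peak, and the strongest, C52E4.8, is a neighbour of a gene for a spliceosome protein. C52E4.8 scored 1324, with 605.0 in replicate 1 and 726.7 in replicate 2. Its peak also lies 350 bp upstream of the start of snr-4, which encodes the Sm protein D2. F10D2.13, within an intron of ugt-37, scored 701.5, with 283.1 in replicate 1 and 427.9 in replicate 2, and T11F9.15 scored 376.3, with 175.9 and 208.9. K03B8.10 scored 279.2, with 115.9 in replicate 1 and 174.5 in replicate 2, and T11F9.16 scored 105.7, with 44.8 and 62.02. The order of the 5 genes was the same in all 3 lists.

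All 11 genes placed as U5 by their letters had a peak, and F42C5.12 had the highest reproducible signal of all members. F42C5.12, within an intron of F42C5.9 and on the opposite strand, scored 1378, with 511.4 in replicate 1 and 871.6 in replicate 2, and ranked 32 among the 1500 reproducible peaks. It was the highest member in replicate 2 also, while in replicate 1 the U4 gene C52E4.8 was highest at 605.0, and sup-6, F32B5.9 and H27M09.6 also stood above F42C5.12. F32B5.9 scored 1270, with 561.1 in replicate 1 and 725.8 in replicate 2, and F38E11.10 scored 970.5, with 437.8 and 563.4. C53B4.9, within an intron of mltn-12, was the lowest, with 88.9 in the reproducible list, 35.4 in replicate 1 and 57.7 in replicate 2. The other 7 lay between 258.1 and 686.5. Of these 11 genes 10 lie in introns, 8 of them on the strand of the host gene, and ZK897.2, ZK897.3 and ZK897.4 lie in introns of unc-31, with 547.2, 608.7 and 555.4. All 11 were among the 1500 strongest regions of each replicate.

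U6 genes fell into 9 with a peak and 13 without. W05B2.8, within an intron of dhc-4, scored 1075, with 473.5 in replicate 1 and 596.2 in replicate 2. F54D8.7 scored 569.3, with 273.1 in replicate 1 and 336.0 in replicate 2, and Y9C9A.111 scored 424.3, with 193.7 and 242.6. R07E5.16 and F54C8.10 were the lowest with a peak, at 114.5 and 125.5. Among the 13 without, Y17G9A.90 had the highest pooled region, at 53.5. The 6 U6 genes K09B11.11 to K09B11.16 lie in introns of mam-3, and none had a reproducible peak. Of those 6, 5 had a pooled region, between 27.04 and 38.4, and adjacent pairs share a region: 1 for K09B11.13 and K09B11.14 and 1 for K09B11.15 and K09B11.16. B0205.15, a U6 gene of 108 bases in an intron of srz-85, was the sole U6 gene in almost wholly unrepeated sequence (a share of 0.992), and it had no peak and a pooled region of 17.7.

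SmY genes mostly carried peaks. The strongest was smy-1, with 790.6 in the reproducible list, 333.7 in replicate 1 and 458.4 in replicate 2. Its peak also lies within 500 bp of the start of smy-2, which the annotation types as snoRNA and which is therefore not a member. The neighbours smy-8, smy-9 and smy-10 scored 590.5, 535.2 and 463.5, and smy-4 was the lowest with a peak at 95.8, with 48.1 in replicate 1 and 45.3 in replicate 2. The replicates ordered some of these genes differently: smy-11 had 63.8 in replicate 1 and 164.2 in replicate 2, while smy-6 had 83.3 and 50.2. The gene without a reproducible peak, smy-5, had a pooled region of 49.03.

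The 20 other genes were the group least covered. Beside mir-1831 and T27E4.22, which share U1 peaks, no gene of the 20 had a reproducible peak. Of these 18 genes, 14 lie where at least 0.9 of the 36-base words around the start occur only once. Among those 14, F56A12.5 had a pooled region of 49.9, M163.13 had 41.4, B0213.24 had 22.2 and C35D6.6 had 19.5. C53D6.16 had only a replicate 2 region of 16.2. The remaining 9 (T10H4.16, T10H4.17, B0213.21, B0213.22, B0213.23, C35D6.7, C41G6.17, T14B4.10 and ZK1251.14) had no region in any list. Of the 20 others, 8 overlap an exon, in each case but F20D1.21 on the opposite strand, and 6 of these lie in genes of the cytochrome P450 family cyp-34A.

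The replicates ranked the members alike. Over the 73 members with a region in both replicate lists the Spearman correlation of the signal was 0.975, and over the 59 members with a reproducible peak it was 0.958. These are descriptions across genes, which share the libraries and are not independent. The 59 have peaks that passed a threshold across these same replicates, so likeness over them was partly set by that choice. Among the 1500 strongest regions of replicate 1 lay 59 members (3.73% of all genes), among those of replicate 2 also 59 (3.99% of all genes), and 58 were in both (2.65% of all genes). The largest differences in rank were at weak regions: F54C8.9 ranked 4470 in replicate 1 and 15745 in replicate 2, and C05G6.4, K09B11.13, K09B11.14 and smy-5 followed. None of these 5 had a reproducible peak. A large rank difference needs a low rank in at least 1 list, so it can hardly arise at a strong peak.

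**Figure D2:**
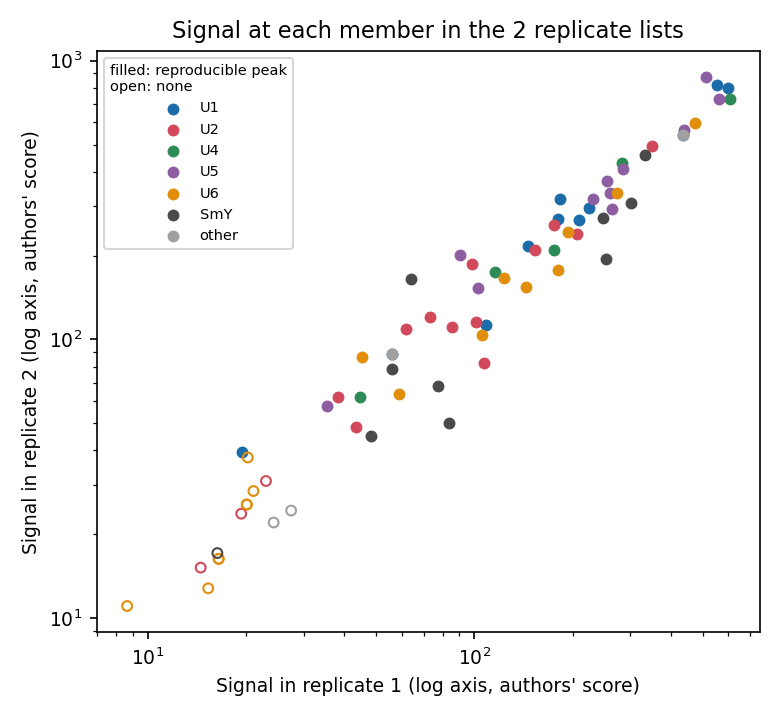
Signal of the highest region within 500 bp of the start in the replicate 1 list (x axis) and the replicate 2 list (y axis), both the authors' score on log axes, for the 73 members with a region in both, coloured by sequence group, filled where a reproducible peak was present. The points run along a diagonal, and the open points gather at the low end.

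Summits lay upstream of the start at most members. Over the 59 genes the summit lay a median of 41 bp upstream, with an interval of 34 to 47 bp from the order of the values, and 39 of the 59 lay 30 to 60 bp upstream. This interval too treats the genes as independent, which near-identical copies are not. In the replicate lists the median over these genes was 41 bp upstream in replicate 1 and 36 bp upstream in replicate 2. By group the median was 37 bp upstream at U1, 47 at U4, 45 at U5, 39 at U6 and 43 at SmY genes. For 24 of the 59 the deposited summit is the middle of the region, as for 1341 of all 1500 reproducible peaks. By group this holds for 9 of the 12 summits at U2 and 5 of the 9 at SmY genes, among others. How such summits were placed is not stated, so these positions may be coarse.

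At U2 genes the summits lay on both sides of the start. Their median was 21 bp downstream of the start, 53.5 bp in replicate 1 and 15 bp in replicate 2, and 9 of the 12 are the middle of the region. Those 9 include all 7 U2 summits that lay inside the gene, 14 to 128 bp from the start, each in a region of 320 bp. In the replicate lists 5 of these 7 genes had the summit downstream of the start in both replicates, F56H6.16 in replicate 1 only, and Y54G9A.8 in neither. The other 5 U2 summits lay 43 to 49 bp upstream, and 4 of them lay upstream in both replicates as well. The exception was W04G5.11, with the summit 148 bp downstream of the start in replicate 1 and 128 bp in replicate 2. The 3 U2 summits that are not the middle of a region, at Y57G11C.35, F11A5.14 and C47F8.9, lay 47 to 49 bp upstream. Of the other groups, 2 U5 summits lay inside the gene, at ZK897.4 and F07C6.5, on opposite sides of the start in the 2 replicates, and the summit at the U1 gene T27E4.11 lay 35 bp past its far end. At ZK897.4 the computed summit, base 12787200, falls just past the end of its own region, base 12787199, so that position is doubtful. Repeated sequence moved with the side of the U2 summits: at the 7 U2 genes with the summit inside the gene, the median share of 36-base words occurring once was 0.739 upstream of the start and 0 from the start on, against 1.0 and 0.310 at the 5 with the summit upstream. Its part in the result was not tested.

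**Figure D3:**
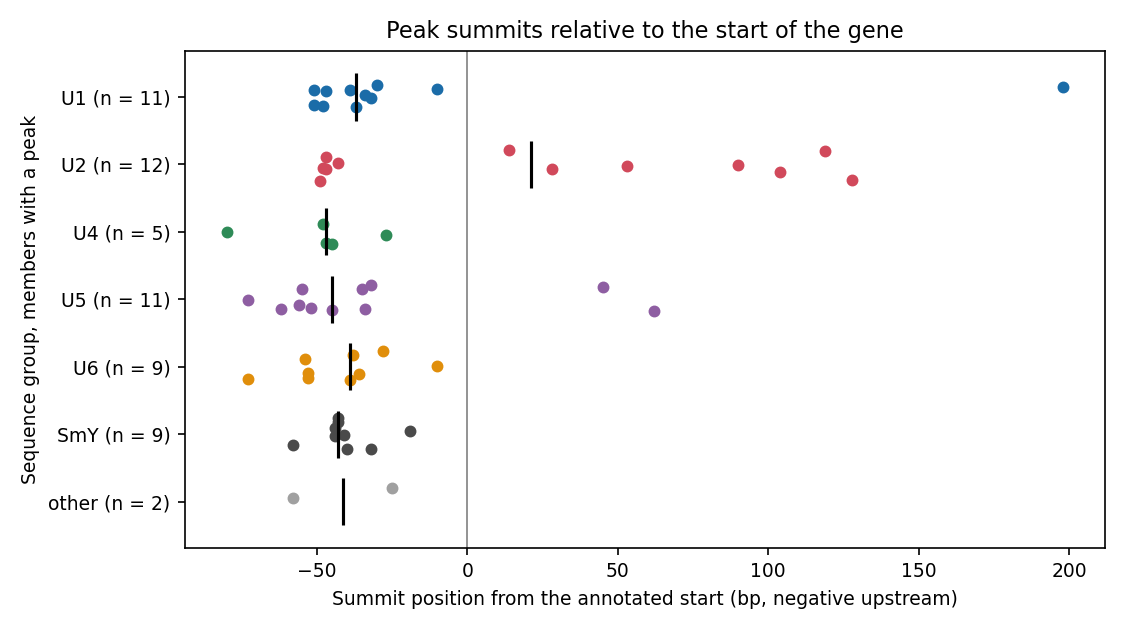
Position of the summit of the reproducible peak relative to the annotated start (bp, negative upstream) for each member with a peak, by sequence group, with vertical bars at the group medians. Most summits of every group but U2 lie upstream near the median of 41 bp, and 7 of 12 U2 summits, all of them the middle of their region, lie inside the gene.

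Certain short words recur upstream of the members. Over all words of 6 letters, counted on both strands between 80 and 31 bp upstream, GTACAC was present at 35 members (35.4%, against 0.999% of all genes in the same window). TGTCGG was present at 30 members (30.3%, against 1.097% of genes). This pair, which meets with a shared G in the U2 promoters shown above, is named the second block here. AACCCG was present at 33 members (33.3%, against 0.874% of genes), and GCGGAA at 30 members (30.3%, against 1.48% of genes). CGGAAC followed with 29 members (29.3%, against 0.955% of genes), and GAACCC with 28 members (28.3%, against 0.710% of genes). GGAACC had 27 members (27.3%, against 0.763% of genes), and ACCCGC had 24 members (24.2%, against 0.548% of genes). The last 6 words overlap letter by letter and make up 1 run of 11 letters, which stands unbroken in sup-6 above and is named the first block here. The remaining 2 of the 10 leading words were ACGCGC, with 20 members (20.2%, against 0.686% of genes), and GCACAC, with 20 members (20.2%, against 1.29% of genes). The words were picked on these genes, many of which are near-identical copies, so the shares are a description and a match is not a binding site.

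The blocks divided by group. At least 1 word of the first block was present at 45 members (45.5%, against 3.96% of all genes), namely 10 of 12 U1, 0 of 19 U2, 4 of 5 U4, 11 of 11 U5, 8 of 22 U6, 9 of 10 SmY genes and 3 of 20 others. At least 1 word of the second block was present at 49 members (49.5%, against 2.03% of all genes), namely 7 U1, 19 U2, 3 U4, 5 U5, 4 U6, 9 SmY genes and 2 others. Of this pair the U1 and U4 genes had only TGTCGG, with GTACAC at 0 of 12 and 0 of 5. The SmY genes had only GTACAC, with TGTCGG at 0 of 10. U2 genes thus had a word of the second block in every copy and none of the first block, with GTACAC at 18 and TGTCGG at 15 of the 19. The whole run of the first block was present at 13 members (13.1%, against 0.0533% of all genes): 6 U1 genes, 1 U4, 5 U5 and 1 of the others. The first block was centred 57 bp upstream (median) over the members and 66.5 bp upstream at U6 genes.

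Words and peaks went together over all members, but not within every group. A word of the first block was present at 41 of the 59 genes with a peak and at 4 of the 40 without. A word of the second block was present at 38 of the 59 genes with a peak and at 11 of the 40 without. Thus 91.1% of the members with the first block and 77.6% of those with the second block had a peak. Any of the 10 words was present at 58 of the 59 genes with a peak, and at 15 of the 40 without. The gene with a peak and none of the words was the U6 gene R07E5.16. Every U1, U2, U4, U5 and SmY gene carried at least 1 of the 10 words, with a peak or without. For any word the contrast can therefore be seen only among U6 genes and the others. Of the U6 genes, 8 of 11 with a word and 1 of 11 without had a peak. For the others these counts were 2 of 5 and 0 of 15. The 15 genes with a word and no peak include all 7 U2 genes without a peak, T27E4.10 and smy-5. Summits lay downstream of the first block by a median of 14.5 bp over 41 genes, and within 20 bp of its centre at 26 of them.

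**Figure D4:**
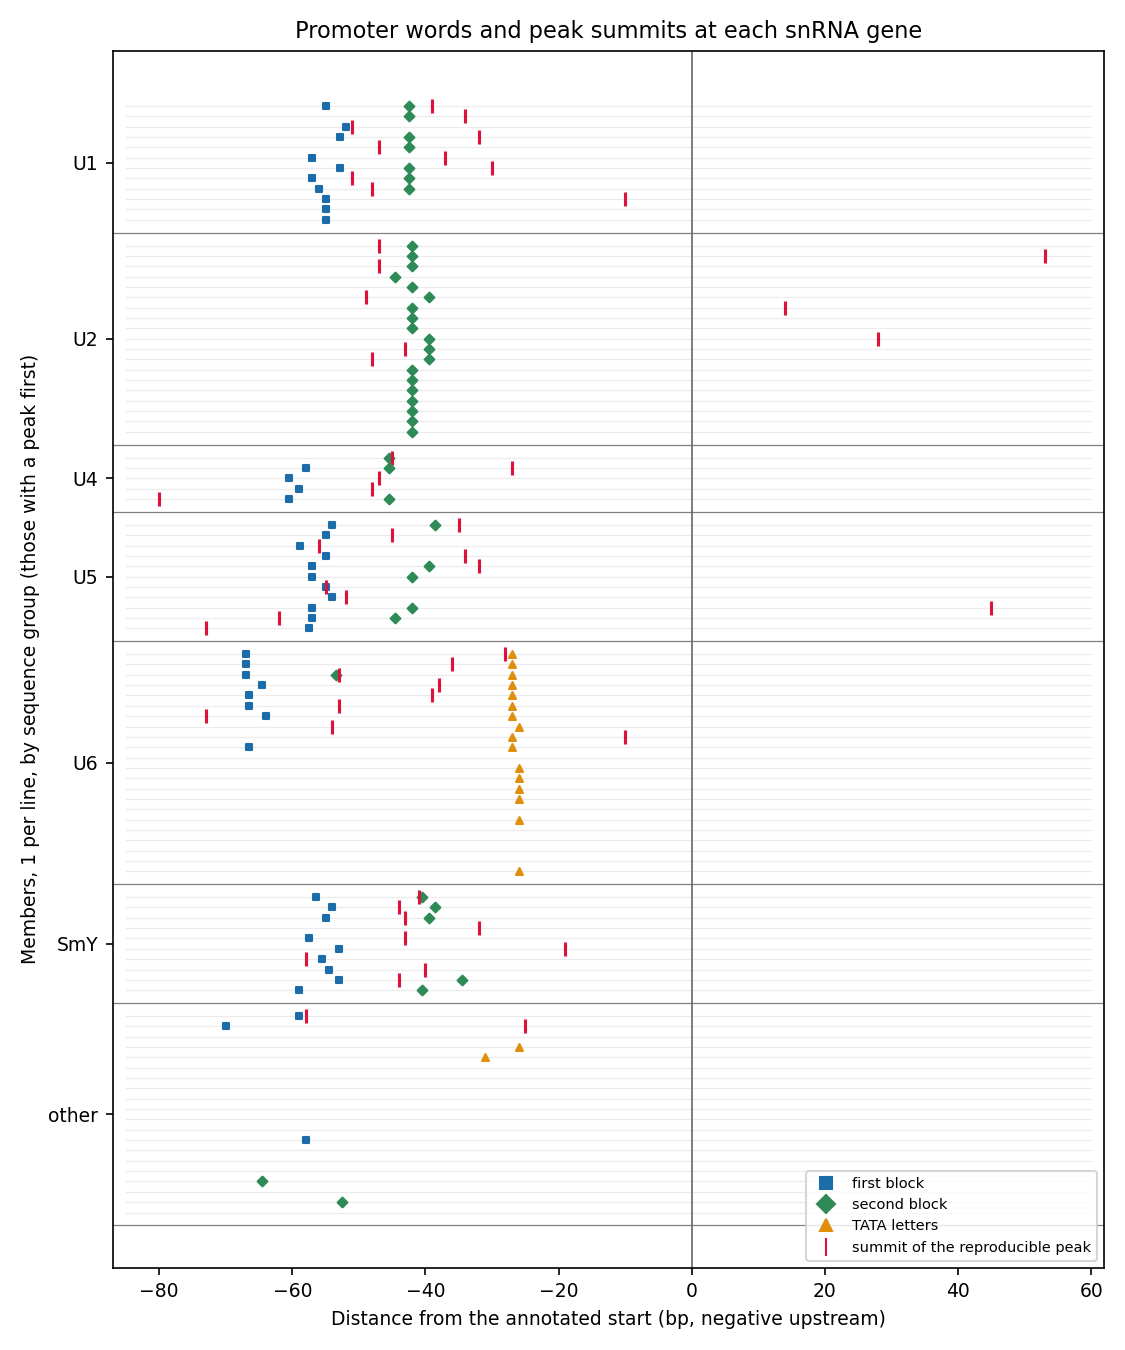
Position of the first block (squares), the second block (diamonds) and TATAA (triangles) on the gene's strand, and of the summit of the reproducible peak (red bars), relative to the annotated start (bp, negative upstream), with 1 line per member; summits more than 60 bp downstream of the start and words found only on the opposite strand are not drawn. A word of the second block lies in every U2 line, a word of the first block in every U5 line, and TATAA in 16 U6 lines and 2 lines of the others.

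The TATA letters set U6 genes apart from the groups made by polymerase II. TATAA between 40 and 16 bp upstream on the gene's strand was present at 16 of 22 U6 genes and 2 of 20 others, and at none of the 57 U1, U2, U4, U5 and SmY genes. Over all genes the share was 7.34%. Its first base lay 28 to 29 bp upstream at the U6 genes. All 9 U6 genes with a peak had TATAA, and so did 7 of the 13 without. Those 7 were Y17G9A.90, which carries a word of the first block, and K09B11.11 to K09B11.16, which carry none of the 10 words. Of the 9 with a peak, 7 carried a word of the first block, and F54C8.10 and R07E5.16 did not.

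Repeated sequence differed between the groups. Of the 36-base words that lie within 150 bp of the start, the median share found only once in the genome was 0.611 at U1, 0.387 at U2, 0.620 at U4, 0.756 at U5 and 0.598 at U6 genes, against 0.998 at SmY genes and 0.998 at the others. The share was 0.9 or more at 24 members, of which 9, all SmY genes, had a peak. It was under 0.5 at 22 members, of which 8 had a peak, 6 of them U2 genes. How reads that match several places were treated is not given in the sources used here, and the part of repeats in the missing peaks was not tested. Copies that share sequence may also share reads, so the values of near-identical genes are uncertain.

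**Figure D5:**
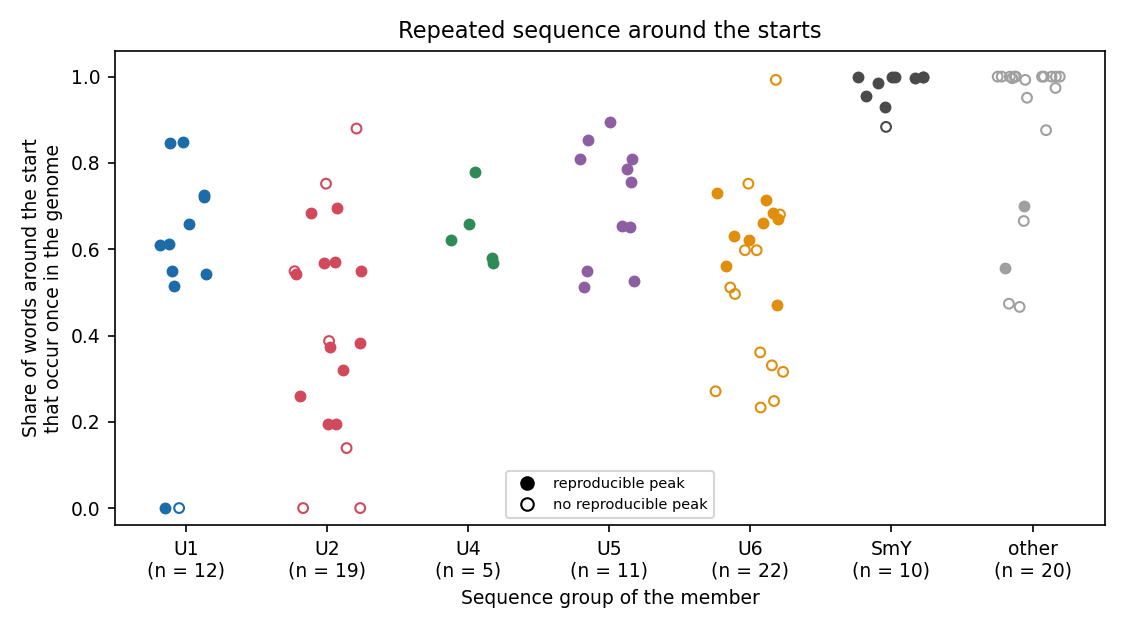
Share of the 36-base words within 150 bp of the start that occur only once in the genome, for each member by sequence group, filled where a reproducible peak was present. SmY genes and most of the others lie above 0.88, U2 genes spread down to 0 and U6 genes to 0.233, 2 U1 genes lie at 0, and members with a peak occur at high and low shares.

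Position in the genome varied as well. Of the 39 members between genes, 27 had a peak, as did 22 of the 32 in an intron on the host's strand, 6 of the 16 in an intron on the opposite strand and 4 of the 12 overlapping an exon. Chromosome IV held 36 members, 21 with a peak, V held 28 with 17, II held 13 with 8, I held 12 with 8, III held 7 with 5 and X held 3 with none. U6 genes made up 10 of the 16 in an intron on the opposite strand. The group of 20 others held 8 of the 12 overlapping an exon and all 3 on X. Position and group thus cannot be told apart here, and the same shares over all genes were not computed. At 12 members the peak also lay within 500 bp of a protein-coding start: C52E4.8, F08H9.10, F08H9.11, Y57G11C.35, smy-9, F42C5.12, F08G2.9, C27H5.11, F56H6.14, W04G5.11, H27M09.6 and F54C8.10.

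Most genes for proteins of the same particles had no peak, but the share with one was above that of protein-coding genes. Of 59 annotated genes in 4 lists, 8 had a reproducible peak (13.6%, against 4.25% of protein-coding genes), and apart from the U4 peak near snr-4 they scored at most 82.9, below the median of all reproducible peaks. Within 200 bp, 4 of the 59 had a peak, against 1.96% of protein-coding genes. Of 7 genes for Sm proteins, which form the ring on U1, U2, U4 and U5 RNAs, 3 had a peak: snr-4, snr-3 (82.9, 268 bp upstream) and snr-1 (60.3, 432 bp upstream), none within 200 bp, where 1.96% of protein-coding genes had one. Of 7 genes for Lsm proteins, lsm-8, whose product belongs to the ring on U6 RNA, had a peak of 60.4 with its summit 11 bp inside the gene, and lsm-1, whose product acts in mRNA decay, had a peak of 61.8 at 435 bp upstream. None of 30 genes for particle proteins and splicing helicases had a peak. Of 15 genes for snRNA processing and assembly 3 had a peak within 200 bp: the Integrator subunits ints-5 (70.6) and ints-9 (68.6), and smn-1 (77.2), whose product loads the Sm ring.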

How the data were processed

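The members and gene lists were chosen with earlier results of these data known. Chromatin was sonicated, per the labels. The 4 deposited lists on build ce11 were used: regions called on replicate 1 (29523), replicate 2 (26195) and the pool of both (30000), each against a control alignment, plus the 1500 reproducible peaks, per the deposited text files. No source used here gives the caller, the aligner or the IDR threshold, and the control was not analysed here. The signal is a score the authors deposited, on a scale that is not stated. Read totals are not in the lists, so the depth is unknown. The 4 lists on ce10 were not used.

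A summit is the region start plus the deposited offset plus 1, in 1-based coordinates. Each gene took the region of highest signal with its summit within 500 bp of the 5′ end in Ensembl release 115, and all region ends lay within the WBcel235 chromosomes. With 1 group of 2 replicates no test between groups was possible, and none was made. Names are those of RefSeq, matched for all 99 members, since 32 share an Ensembl symbol. Splitting the SmY genes from the 20 others was chosen after seeing the data. Genes named are the 10 highest members, the highest of each group, the 5 lowest peaks, the 5 largest rank differences, members without a peak in sequence that is at least 0.9 unique, members sharing a peak with a protein-coding start and listed protein genes with a peak. Other members were named after their values were seen. Of 68 listed protein genes, 9 were not found under their names. Python 3.11.15, numpy 2.4.6, pandas 2.3.3, scipy 1.17.1 and biopython 1.88 were used, and the search for peaks was tested on simulated data.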

Additional observations from a re-analysis of the deposited data

How the results depend on the processing

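Of 75 values recomputed under an alternative, 70 kept within 1.5 times of the count, or within the interval of the value, and none changed direction. The number of members with a peak was 59 at 200 bp, 60 at 1000 bp, 58 in the 750 strongest peaks, 57 with each peak counted once, 58 where the region had to overlap the gene, and 59 without replicate 1 and without replicate 2. Of the 24 members with at least 0.9 unique words, 9 had a peak, with a median signal of 231.5. Fewer members enter there, none of them a U1, U2, U4 or U5 gene, so those groups give no value, and 0 of 1 U6 gene had a peak. At 200 bp, 0 Sm genes and 1 Lsm gene had a peak, since the other summits lie farther out. No paired analysis was possible because the result comes from no test. With depth unknown, a missing peak is not shown to be missing binding.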

Other observations

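The run of 11 letters that makes up the first block was present 80 to 31 bp upstream of 25 genes in the whole annotation, 13 of them members. Of the 12 other genes, 6 are snoRNA genes, 3 are SL2 genes (sls-2), 2 are typed ncRNA and 1 is protein-coding. All 12 had a reproducible peak within 500 bp of the start, 11 of them a peak that no member has, against 3.63% of the 43417 other genes with none of the 10 words. With at least 1 word of the first block, 41 of 45 members had a peak (91.1%), against 150 of 1814 other genes (8.27%). With at least 1 word of the second block, 38 of 49 members had a peak (77.6%), against 103 of 902 other genes (11.4%). These windows can overlap between neighbouring genes, and the comparison was made after the words were seen. Shares for snoRNA or SL2 genes as a class were not computed, nor was the number of distinct peaks at the 12 genes.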
